A study of Mus musculus with 11 samples.

Results

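The members described here are the genes of oxidative phosphorylation in whole distal tibia, 107 of the 22600 genes in the merged count table. They were chosen by symbol: names that start with Ndufa, Ndufb, Ndufc, Ndufs, Ndufv, Cox4 to Cox8, Uqcr, Atp5, mt-Nd, mt-Co, mt-Cytb or mt-Atp, together with Sdha, Sdhb, Sdhc and Sdhd. The rule uses names and no measured value, but it was set with earlier results of these data known. They comprise 36 nuclear subunits of complex I, 8 complex I assembly factors named Ndufaf, 4 subunits of complex II, 8 nuclear genes of complex III, 18 of complex IV, 17 of complex V, 13 protein-coding genes of the mitochondrial genome and 3 genes annotated as noncoding (Atp5l2-ps, Ndufab1-ps and Ndufb1-ps). Ndufa4 and Ndufa4l2 carry a complex I prefix but were placed with complex IV, where the Ndufa4 protein is now counted.

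Tibiae came from 4 Control (genotype BMAd-WT in the labels) and 7 BMAd-DTA mice of C57BL6/SJL background, aged 24 weeks by their labels and fed ad libitum, with 1 stranded mRNA library per mouse. Every mouse, Controls included, carried Osterix-FLPo and FAC, an FLPo-dependent Cre placed behind the coding part of Adipoq, so Cre is restricted to cells that have both an Osterix history and Adipoq expression. BMAd-DTA mice also carried a ROSA allele from which Cre releases diphtheria toxin A, which kills the cells that make it. The study gives limits of the model: Cre activity was incomplete in young mice and rose with age, a small subset of the marrow adipogenic lineage precursors appeared to be targeted, and mice with this Cre had low circulating adiponectin. The comparison made here is whether loss of bone marrow adipocytes went along with a different level of the respiratory chain transcripts in the bone as a whole.

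Oxidative phosphorylation couples the oxidation of NADH and succinate to ATP synthesis at the inner mitochondrial membrane. Complexes I and II pass electrons to ubiquinone, complex III passes them on to cytochrome c, complex IV reduces oxygen, and complex V makes ATP from the proton gradient. Complex II is encoded wholly in the nucleus, whereas the other complexes combine nuclear subunits with a small set encoded by mitochondrial DNA, and some complex IV subunits have separate isoforms for contractile or other specialised tissue.

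Libraries held 16969529 to 18637663 counts assigned to genes, of which mitochondrial members made up 2.12 to 2.70%. Cell type markers moved between groups and between mice in this bulk tissue. Adipocyte markers summed to 1067 to 1976 CPM (counts scaled to a common library size) in Control and 519 to 1284 CPM in BMAd-DTA, and osteoblast and osteocyte markers to 3075 to 13196 and 15617 to 36483 CPM, with Control replicate 1 the lowest library. Chondrocyte and tendon markers also did not overlap between groups (417 to 686 CPM in Control and 745 to 917 CPM in BMAd-DTA), and the medians of the osteoclast and B lymphocyte sums were higher in BMAd-DTA (1666 and 2630 CPM, and 788 and 1032 CPM). Neutrophil markers summed to 23485 to 26950 and 19117 to 28155 CPM. Skeletal muscle markers ranged from 49.4 to 1745 CPM (median 713) in Control and from 50.9 to 1348 CPM (median 256) in BMAd-DTA. Erythroid markers ranged from 15614 to 35035 CPM (median 32400) and from 20750 to 37103 CPM (median 26381). Of 22 tested muscle markers, 19 had a lower and 3 a higher mean in BMAd-DTA, and of 11 erythroid markers, 10 had a lower and 1 a higher mean. The part of these shifts in the values given below was not tested, and in bulk tissue fewer cells of a type and less RNA per cell cannot be told apart.

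Several mitochondrial genes have letter-for-letter copies in the nuclear genome, and pairs that align to more than 1 place are not in the counts, so a pair of stretches is shown before the values. The transcript of mt-Co2 (chrM:7013-7696 on GRCm38, plus strand) has an identical counterpart on chromosome 1, the unprocessed pseudogene Gm28661 (chr1:24614885-24615565, minus strand), with 0 differences over the 681 bases that both cover. Bases 1 to 90 read the same in both transcripts. The mt-Nd4 transcript (chrM:10167-11544, plus strand) is matched by Gm28439 (chr1:24611535-24612410, minus strand) over its opening 876 bases only. The stretch from base 832 to base 921 of mt-Nd4 spans the end of that match. In it, bases shared with Gm28439 are in capitals and bases beyond the match in lower case. The mt-Co2 stretch is shared throughout and is left in lower case.
mt-Co2: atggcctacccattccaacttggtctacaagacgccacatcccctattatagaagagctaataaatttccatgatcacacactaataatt
mt-Nd4: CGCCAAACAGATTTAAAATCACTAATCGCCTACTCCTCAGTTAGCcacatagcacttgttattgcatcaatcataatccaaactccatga

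Promoters from RefSeq (GRCm38.p6, 250 bases before to 50 after the start) were found by symbol for 74 of the 107 members, a total that includes the 13 genes of the mitochondrial genome. The core of the nuclear respiratory factor 1 motif, searched as GCGCNTGCG on both strands, occurred in 24 of the 74 (32.4%), against 6.59% of all 27025 promoters and 12.6% of the promoters of tested genes. The YY1 motif AAGATGGCG occurred in 7 members (9.46%), against 1.49% of all promoters and 2.81% of those of tested genes. The ETS family motif CCGGAAGT was no more frequent in members than in tested genes, with 5 members (6.76%) against 7.39%. At least 1 of these 3 was present in 33 member promoters (44.6%), in 11.2% of all promoters and in 20.9% of those of tested genes. TATAAA was present in 7 members (9.46%, against 14.2% of all promoters and 7.72% of those of tested genes), and CCAAT in 33 (44.6%, against 37.9% and 38.3%). A base may belong to more than 1 motif, and a match describes letters in the window, not a bound site. The promoters of the Cox8 isoforms are shown because they belong to the same subunit of complex IV in its ubiquitous (Cox8a) and its contractile-tissue form (Cox8b). Capitals mark every match: in Cox8a (chr19:7217567-7217866, minus strand) CCAAT and 2 ETS motifs, all read on the opposite strand, and in Cox8b (chr7:140900397-140900696, minus strand) TATAAA.
Cox8a: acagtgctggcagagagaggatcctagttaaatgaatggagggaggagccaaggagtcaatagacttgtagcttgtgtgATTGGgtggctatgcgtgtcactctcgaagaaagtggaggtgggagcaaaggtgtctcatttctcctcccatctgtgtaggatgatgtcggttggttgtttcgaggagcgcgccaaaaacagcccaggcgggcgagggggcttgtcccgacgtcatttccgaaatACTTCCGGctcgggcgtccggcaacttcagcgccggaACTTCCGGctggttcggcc
Cox8b: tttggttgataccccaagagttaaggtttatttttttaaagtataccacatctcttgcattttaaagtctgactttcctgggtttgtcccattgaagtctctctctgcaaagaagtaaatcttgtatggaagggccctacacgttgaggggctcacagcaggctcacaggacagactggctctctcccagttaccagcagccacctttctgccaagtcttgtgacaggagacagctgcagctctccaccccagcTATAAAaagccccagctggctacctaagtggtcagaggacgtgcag

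As counted, transcripts of the respiratory chain were at similar levels in the tibiae of both groups. Of the 107 members, 102 passed the filter on low counts, whereas mt-Atp8, mt-Nd3, mt-Nd4l, Atp5l2-ps and Ndufab1-ps did not. Among the 102, the mitochondrial genes mt-Co2, mt-Atp6, mt-Co3 and mt-Nd6 had only 383 to 812 counts over all libraries. For these genes the comparison of groups rests on few counts. None of the 102 reached an adjusted p of 0.05 by the quasi-likelihood test of edgeR (Benjamini-Hochberg, 16496 genes), which called 13 genes (0.0788%), and none did in DESeq2, which called 5.42% of the genes it tested. At an unadjusted p under 0.05 there were 3 members (2.94%), against 16.4% of all genes tested. No member separated the groups, that is, none had all 7 BMAd-DTA libraries above or below all 4 Control libraries, which 2.81% of all genes did. The log2 fold changes (BMAd-DTA over Control) of the tested members ran from -0.32 to 0.48 with a median of 0.02, beside a median of 0.00 over all genes. A higher mean in BMAd-DTA was found for 65 of the 102 members and for 8307 of the 16496 genes tested. The 95% interval lay within a 1.5-fold change in either direction for 92 of the 102 members, compared with 61.9% of all genes. Among genes with a mean of at least 5 CPM, it did so for 88 of 93 members and for 81.8% of genes. The 10 members with a wider interval were Ndufb2, Ndufs5, Ndufaf1, Cox6a2, Cox6b2, Cox7a1, Cox8b, Ndufa4l2, mt-Co3 and mt-Nd6.

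**Figure D1:**
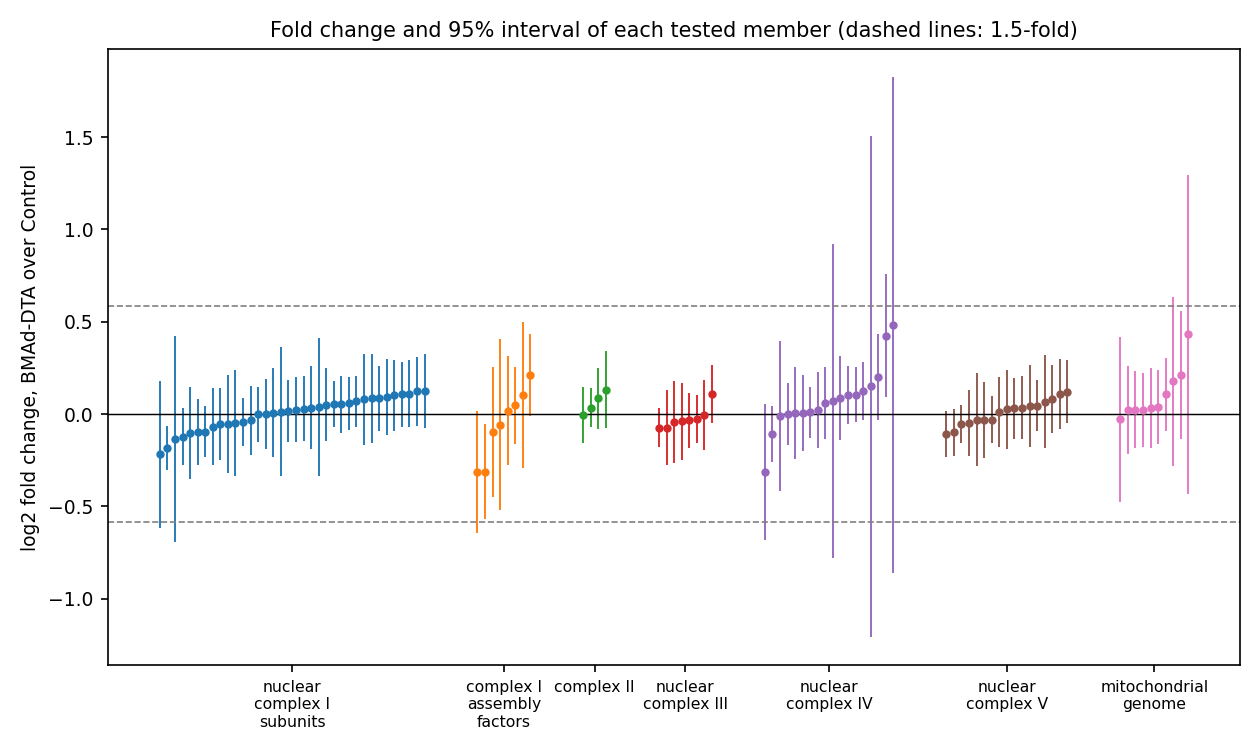
The log2 fold change of each tested member (BMAd-DTA over Control, vertical axis) is plotted as a point with its 95% interval, grouped by complex and genome of origin and ordered by size within each class; Ndufb1-ps, annotated as noncoding, is left out. Dashed lines mark a 1.5-fold change, and the intervals of 10 members, among them Cox7a1, Cox8b, Cox6a2, Ndufa4l2 and mt-Nd6, reach past them.

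Summed over a complex, the libraries of both groups overlapped for every complex. Nuclear complex I subunits summed to 1519, 1403, 1534 and 1439 CPM in the 4 Control libraries and to 1352 to 1609 CPM (median 1484) in the 7 BMAd-DTA libraries. Complex II summed to 344, 333, 340 and 368 CPM in Control and to 338 to 386 CPM (median 354) in BMAd-DTA. Nuclear complex III summed to 597, 542, 589 and 574 CPM in Control and to 530 to 612 CPM (median 554) in BMAd-DTA. The BMAd-DTA mean differed from the Control mean by 1.13%, 4.18% and -1.75% for these 3 complexes, less in each case than the SD within either group.

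Nuclear complex IV genes summed to 1230, 1104, 1173 and 1119 CPM in Control and to 1100 to 1381 CPM (median 1202) in BMAd-DTA, a mean 4.26% higher. Nuclear complex V genes summed to 2212, 2100, 2122 and 2208 CPM in Control and to 1987 to 2244 CPM (median 2067) in BMAd-DTA, a mean difference of -2.07%. Nuclear subunits of all 5 complexes together came to 5713 ± 174 CPM (SD, n = 4) in Control and 5738 ± 328 CPM (SD, n = 7) in BMAd-DTA. The highest nuclear sum was that of BMAd-DTA replicate 6 (6216 CPM) and the lowest that of BMAd-DTA replicate 7 (5361 CPM), so both extremes lay in the same group.

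**Figure D2:**
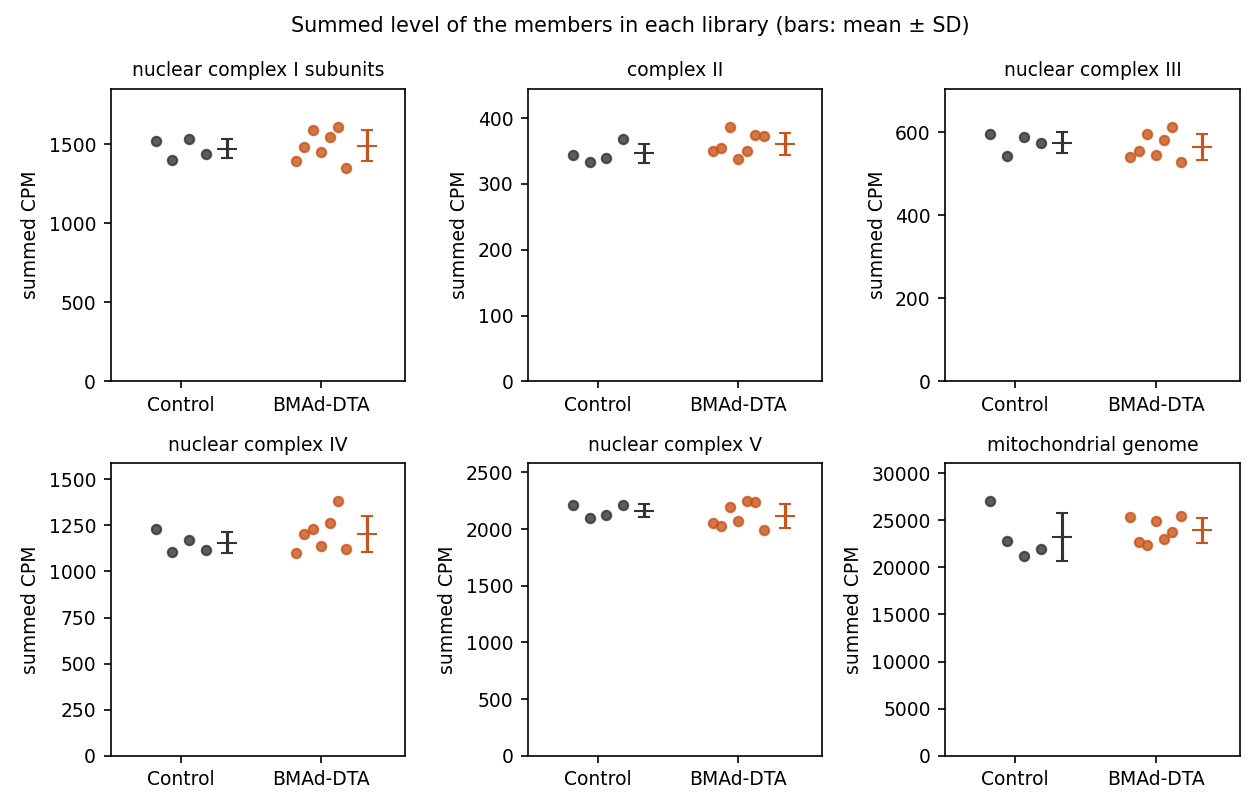
Summed CPM of the members of each class (vertical axes, starting at 0) is shown for every Control and BMAd-DTA library as a point, with the mean ± SD of each group beside it. The groups overlap in all 6 panels, and the highest mitochondrial sum, 27011 CPM, is that of Control replicate 1.

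Complex I, the NADH dehydrogenase, had the most members. Of its 36 nuclear subunits, 22 had a higher and 14 a lower mean in BMAd-DTA, with log2 fold changes that had a median of 0.02 and ran from -0.22 (Ndufs5) to 0.12 (Ndufa8). Ndufa8 was at 43.8 ± 6.62 CPM (SD, n = 4) in Control and 47.8 ± 3.78 CPM (SD, n = 7) in BMAd-DTA, and Ndufs5 at 14.0 ± 1.55 and 12.0 ± 3.19 CPM (SD). Of the 100-nt windows of the Ndufs5 transcript, 19.8% recur in another transcript, so its count is uncertain. Within groups, the coefficient of variation of the 36 subunits was 9.55% at the median.

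The complex I gene with the smallest p was Ndufs1 (chr1:63143596-63176833, minus strand), which encodes the large iron-sulfur subunit that takes electrons from the flavin site. It was counted at 71.9, 62.9, 65.6 and 68.0 CPM in Control and at 57.1 to 63.2 CPM (median 58.5) in BMAd-DTA. The Control libraries lay higher, with 6 of 7 BMAd-DTA libraries below all of them and the remaining library, at 63.2 CPM, above the lowest Control. The log2 fold change was -0.18 (SE 0.06), a ratio of 0.88 with a 95% interval of 0.81 to 0.96, at an adjusted p of 0.125 in edgeR and 0.0546 in DESeq2. The core subunits Ndufv1 and Ndufv2, which hold the flavin end of the complex with it, had log2 fold changes of -0.12 and -0.04. Both were singled out after their values were seen. Ndufv3, the remaining gene of that prefix, went the other way, at 0.07 (SE 0.06).

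Assembly factors of complex I help to build the complex and are not part of it once finished. Of 8, 4 had a higher and 4 a lower mean in BMAd-DTA, and the median log2 fold change was -0.02. Ndufaf4 (chr4:24898083-24905001, plus strand) was counted at 18.02, 13.5, 16.8 and 15.9 CPM in Control and at 10.98 to 15.1 CPM (median 12.3) in BMAd-DTA. The groups overlapped around Control replicate 2, the lowest Control, and 4 of 7 BMAd-DTA libraries lay below it. Its log2 fold change was -0.31 (SE 0.12), with an adjusted p of 0.205 in edgeR. Ndufaf1 had a log2 fold change of -0.32 (SE 0.15, adjusted p = 0.323 in edgeR), with 6 of 7 BMAd-DTA libraries under every Control library. Ndufaf7, a methyltransferase and the most abundant of the 8 by CPM, had one of 0.21 (SE 0.10, adjusted p = 0.328).

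**Figure D3:**
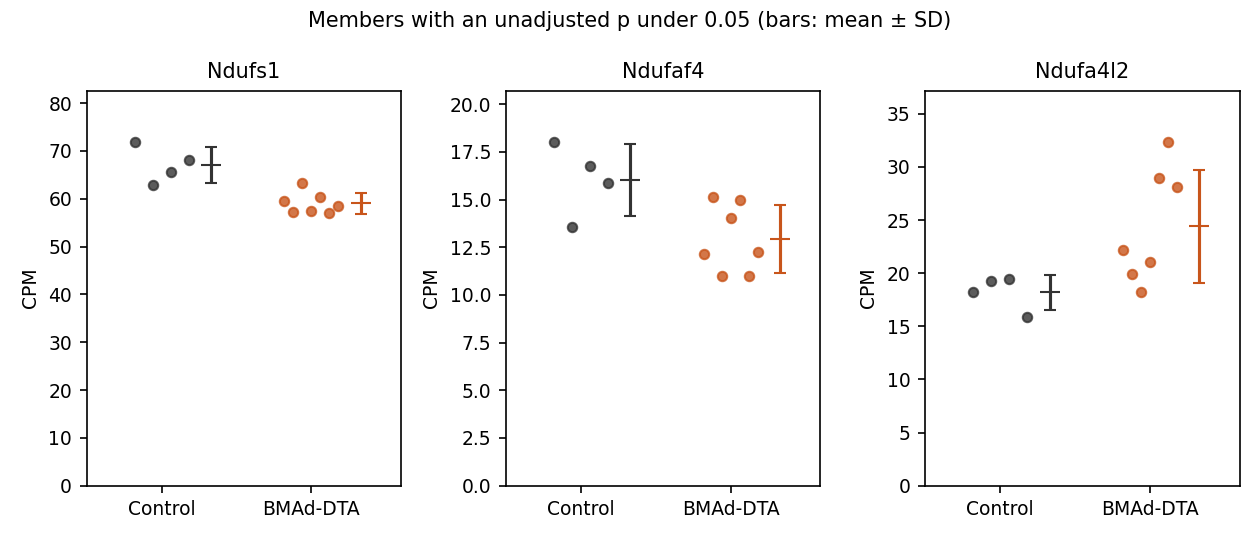
CPM of the 3 members with an unadjusted p under 0.05 (vertical axes, starting at 0) is shown for each library as a point, with the mean ± SD of each group beside it. Ndufs1 and Ndufaf4 lie lower and Ndufa4l2 higher in most BMAd-DTA libraries, with overlap between the groups in all 3 panels.

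Complex II, succinate dehydrogenase, also works in the tricarboxylic acid cycle. Its flavoprotein gene Sdha was counted at 165, 155, 162 and 164 CPM in Control and at 154 to 171 CPM (median 165) in BMAd-DTA, a log2 fold change of 0.04 (SE 0.05). Sdhb, the iron-sulfur subunit, was counted at 70.4, 65.5, 76.6 and 84.8 CPM in Control and at 70.2 to 99.1 CPM (median 81.0) in BMAd-DTA, a log2 fold change of 0.13 (SE 0.10, adjusted p = 0.542 in edgeR). The membrane anchors Sdhc and Sdhd had log2 fold changes of 0.09 (SE 0.08) and -0.01 (SE 0.07). All 4 intervals lay within a 1.5-fold change. Sdha, with a within-group coefficient of variation of 3.58%, was among the steadiest members.

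Complex III, the cytochrome bc1 complex, had 8 nuclear members, of which 7 had a lower mean in BMAd-DTA and Uqcrh a higher one. Each difference was small: the log2 fold changes ran from -0.07 to 0.11 with a median of -0.04. Uqcrc2, a core subunit, was counted at 96.6, 90.5, 95.2 and 99.6 CPM in Control and at 88.3 to 93.8 CPM (median 91.1) in BMAd-DTA, a log2 fold change of -0.07 (SE 0.05, adjusted p = 0.476 in edgeR). Uqcrh, the hinge subunit, was counted at 65.3, 57.4, 58.1 and 56.8 CPM in Control and at 59.4 to 75.02 CPM (median 62.6) in BMAd-DTA. The most abundant gene by CPM, Uqcrc1, was at 173 ± 4.03 and 169 ± 11.3 CPM (SD).

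Complex IV, cytochrome c oxidase, had the widest spread of fold changes, from -0.32 (Cox6b2) to 0.48 (Cox7a1) on the log2 scale, with 15 of 18 nuclear genes at a higher mean in BMAd-DTA and a median of 0.07. Of the 18 intervals, 13 lay within a 1.5-fold change; the others were those of Cox6a2, Cox6b2, Cox7a1, Cox8b and Ndufa4l2. Cox4i1, the most abundant nuclear gene of the complex by CPM, was counted at 153, 145, 165 and 148 CPM in Control and at 146 to 192 CPM (median 163) in BMAd-DTA, a log2 fold change of 0.10 (SE 0.07).

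Ndufa4l2 (chr10:127514967-127517154, plus strand), a paralog of Ndufa4 known as a gene induced by low oxygen, was the complex IV member with the smallest p. It was counted at 18.2, 19.3, 19.4 and 15.9 CPM in Control and at 18.3 to 32.3 CPM (median 22.2) in BMAd-DTA. All but 1 BMAd-DTA library exceeded the highest Control library. Its log2 fold change was 0.42 (SE 0.15), a 1.34-fold difference with a 95% interval of 1.07 to 1.69, at an adjusted p of 0.183 in edgeR and 0.0916 in DESeq2. The summed osteoblast and osteocyte markers, and those of chondrocytes and tendon, were higher in every BMAd-DTA library than in any Control library, and their part in this value was not tested. Ndufa4 itself was at 48.0 ± 3.55 CPM (SD, n = 4) and 44.6 ± 2.85 CPM (SD, n = 7), a log2 fold change of -0.11 (SE 0.07). Per length, Ndufa4l2 made up 20.7, 22.0, 19.97 and 16.8% of the pair in Control and 21.0 to 31.4% (median 26.1%) in BMAd-DTA.

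The other tissue-restricted isoforms were minor beside their ubiquitous partners in tibia. Cox6a2, the heart and skeletal muscle form, was 4.25, 3.50, 7.40 and 4.36% of the Cox6a pair per length in Control and 2.07 to 7.69% (median 5.06%) in BMAd-DTA. Cox7a1, likewise a contractile-tissue form, was 0.59 to 4.15% of the Cox7a pair in Control and 0.56 to 4.07% in BMAd-DTA, and Cox8b was 0.26 to 2.37% and 0.27 to 2.81% of the Cox8 pair. Cox4i2, a form known from lung and from low oxygen, was 3.75 to 6.48% of the Cox4 pair in Control and 3.62 to 6.11% in BMAd-DTA. None of these shares separated the groups.

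Cox6b2, known as the testis form, held a higher share than these. It made up 23.1, 18.3, 17.2 and 12.5% of the Cox6b pair in Control and 12.0 to 15.0% (median 13.8%) in BMAd-DTA. By CPM it was counted at 32.4, 21.1, 20.4 and 15.3 in Control and at 14.3 to 21.3 (median 18.2) in BMAd-DTA, a log2 fold change of -0.32 (SE 0.17, adjusted p = 0.382 in edgeR). Control replicate 1 was well above the other libraries, and without it the log2 fold change was -0.08 and the difference in share -2.15 instead of -3.92 percentage points.

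Cox6a2, Cox7a1 and Cox8b varied more between mice than between groups, beside the skeletal muscle markers. Cox6a2 was counted at 8.93, 5.95, 14.4 and 6.33 CPM in Control and at 3.78 to 17.4 CPM (median 8.58) in BMAd-DTA, a log2 fold change of 0.07 (SE 0.39) whose sign turned with single mice left out. The muscle markers of the 4 Control libraries summed in the same order to 671, 755, 1745 and 49.4 CPM. BMAd-DTA replicate 6, with 1348 CPM of muscle markers the highest of its group, also had the highest Cox6a2 (17.4 CPM), Cox7a1 (1.58 CPM) and Cox8b (2.94 CPM). In contrast, BMAd-DTA replicate 5 held 8.32 CPM of Cox6a2 with only 52.1 CPM of muscle markers, and BMAd-DTA replicate 3 held 1.76 CPM of Cox8b with 55.9 CPM. The part of muscle tissue in these values was not tested. Counts were few, at 3 to 27 per library for Cox7a1 and 4 to 50 for Cox8b, and the coefficients of variation within groups were 71.6% and 67.7%, beside 50.1% for Cox6a2.

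**Figure D4:**
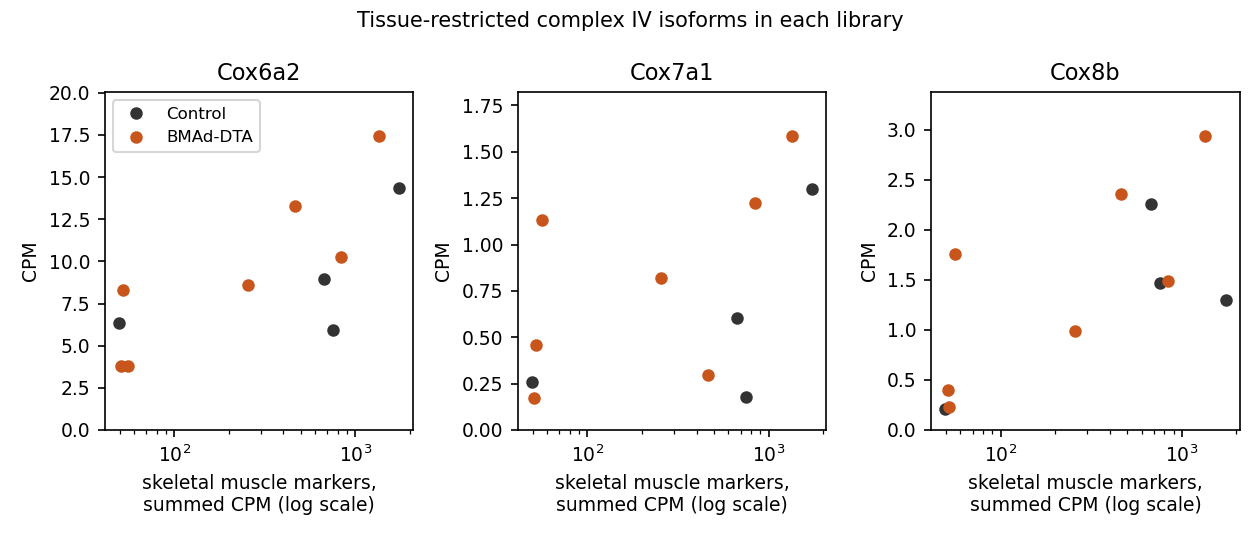
CPM of Cox6a2, Cox7a1 and Cox8b (vertical axes) is plotted against the summed CPM of 25 skeletal muscle markers (horizontal axes, log scale), with 1 point per library. The library with the highest value in each panel is BMAd-DTA replicate 6, and libraries with few muscle markers still hold 3.78 to 8.32 CPM of Cox6a2.

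Complex V, the ATP synthase, had 17 nuclear members with 10 at a higher and 7 at a lower mean in BMAd-DTA, a median log2 fold change of 0.03 and all 17 intervals within a 1.5-fold change. Atp5b, the catalytic beta subunit and the most abundant nuclear member of all by CPM, was counted at 604, 584, 567.6 and 589 CPM in Control and at 517 to 586 CPM (median 545) in BMAd-DTA. Nearly all BMAd-DTA libraries, 6 of 7, lay below every Control library. The log2 fold change was -0.11 (SE 0.06) with an adjusted p of 0.366 in edgeR. Atp5a1, the alpha subunit that alternates with it in the head of the enzyme, was at 510 ± 27.3 and 499 ± 20.7 CPM (SD), a log2 fold change of -0.03. Atp5g2, a gene of the membrane ring, had the largest value of the class at 0.12 (SE 0.08), but 86.4% of its transcript windows recur elsewhere, so its count is uncertain. The same holds to a lesser degree for Atp5l, Cox7c and Ndufb4, with over 30% of their windows shared.

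The mitochondrial genome encodes 13 proteins, and 6 of its genes carried nearly all of its counts. These were mt-Co1, mt-Cytb, mt-Nd1, mt-Nd5, mt-Nd2 and mt-Nd4, at 1406 to 5536 CPM per kb. The mitochondrial sum was 27011, 22767, 21249 and 21946 CPM in Control and 22332 to 25457 CPM (median 23770) in BMAd-DTA. All 7 BMAd-DTA libraries lay inside the Control range, whose upper end was Control replicate 1 alone. The log2 ratio of the group means was 0.04, and 0.12 without Control replicate 1.

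The 6 abundant genes gave log2 fold changes of 0.02 to 0.11, and all 6 intervals lay within a 1.5-fold change. mt-Co1, which encodes the oxygen-binding subunit of complex IV, was counted at 9835, 8360, 7290 and 8234 CPM in Control and at 8066 to 9289 CPM (median 8556) in BMAd-DTA, a log2 fold change of 0.03 (SE 0.10). mt-Cytb, the only mitochondrial gene of complex III, was counted at 4568, 3950, 3853 and 3614 CPM in Control and at 3936 to 4664 CPM (median 4324) in BMAd-DTA, a log2 fold change of 0.11 (SE 0.09, adjusted p = 0.612 in edgeR). The complex I genes mt-Nd1, mt-Nd2, mt-Nd4 and mt-Nd5 had log2 fold changes of 0.02, 0.02, 0.04 and 0.02.

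The other 7 mitochondrial genes were counted at 0.84 to 6.09 CPM per kb, far below the 6 abundant ones although all but mt-Nd6 lie on the same strand. For 5 of them, mt-Co2, mt-Atp6, mt-Co3, mt-Nd4l and mt-Nd3, between 97.6 and 99.9% of the 100-nt windows of the transcript recur letter for letter in another annotated transcript, as shown above for mt-Co2 and Gm28661. Pairs that align to several places are not in these counts, and they made up 6.68 to 9.07% of the libraries. The nuclear copy Gm28661 was itself counted at 54 to 84 per library and mt-Co2 at 54 to 87. mt-Nd4 shares 60.8% of its windows and mt-Co1 30.8%, and pairs that lie wholly within such windows cannot be assigned to 1 place, so levels of these genes cannot be compared with those of mt-Nd1, mt-Nd5 or mt-Cytb, which share none. The remaining low genes, mt-Nd6 and mt-Atp8, share no window with another annotated transcript. Genome sequence outside annotated transcripts was not compared, so a window share of 0 does not show that a gene has no nuclear copy. mt-Atp8 (chrM:7766-7969) is 204 nt long, and its end overlaps the start of mt-Atp6 (chrM:7927-8607). It also lies between mt-Co2 and mt-Nd4, whose copies Gm28661 and Gm28439 are both on chromosome 1. The part of either in the low count of mt-Atp8 was not tested.

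mt-Nd6 (chrM:13552-14070) is the only protein-coding gene on the light strand. It had 383 counts over all 11 libraries on its own strand, but 239750 when strand was ignored, and mt-Nd5, which ends over mt-Nd6, went from 719782 to 624399. For the other mitochondrial genes the totals with and without strand were close. With 14 to 84 counts per library, mt-Nd6 had a log2 fold change of 0.43 (SE 0.40, adjusted p = 0.649 in edgeR), and of 0.11 without BMAd-DTA replicate 2, the highest library at 4.81 CPM. Of the low genes, mt-Co2 had a log2 fold change of 0.21 (SE 0.16), mt-Co3 of 0.18 (SE 0.21), or 0.05 without that library, and mt-Atp6 of -0.03 (SE 0.21). mt-Atp8, mt-Nd3 and mt-Nd4l had at most 12 counts in any library and were not tested.

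**Figure D5:**
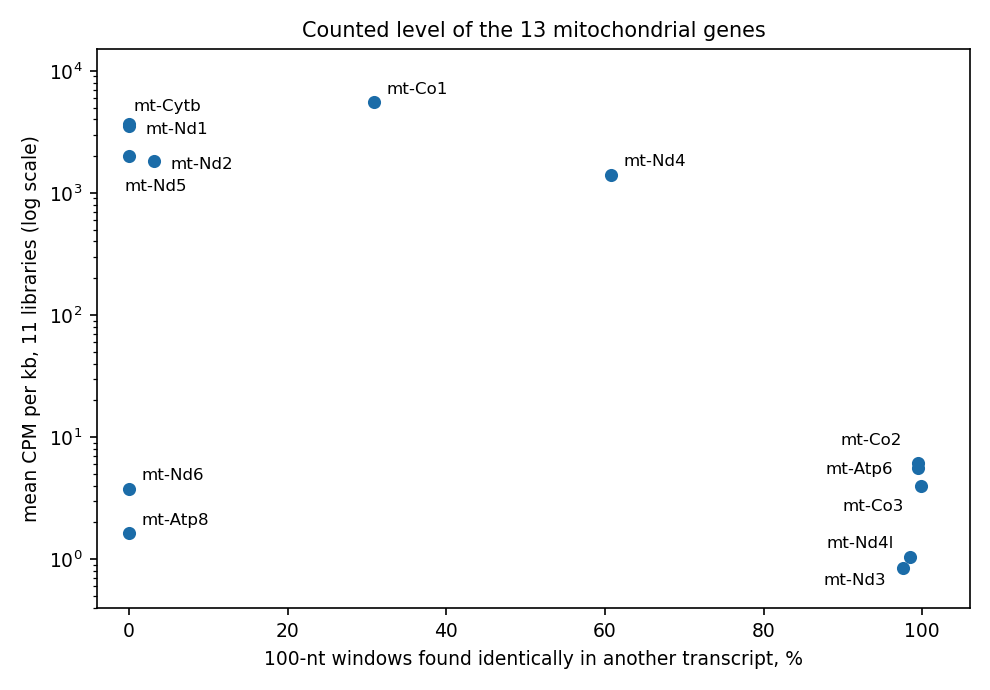
The mean CPM per kb over 11 libraries (vertical axis, log scale) of the 13 mitochondrial protein-coding genes is plotted against the percentage of their 100-nt windows found identically in another transcript (horizontal axis). The 5 genes with over 90% of windows shared lie at 0.84 to 6.09 CPM per kb and the 6 abundant genes at 1406 to 5536, with mt-Nd6 and mt-Atp8 low at 0%. Only annotated transcripts were compared, so 0% does not show that a gene has no copy elsewhere in the genome.

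Per length, the abundant mitochondrial genes stood well above the nuclear ones. Their median was 2784 CPM per kb, 57.1 times the median of the 83 nuclear subunits (48.8 CPM per kb), and mt-Co1 was counted at 26.5 times the level of its nuclear partner Cox4i1. Pairs that lie wholly in the shared windows of mt-Co1 and mt-Nd4 are not in these values, so the ratios describe the counts and not the full transcript levels. Among nuclear classes, the medians were 94.8 CPM per kb for complex III, 82.4 for complex IV, 81.7 for complex V, 49.3 for complex II, 41.3 for complex I subunits and 6.84 for the complex I assembly factors. Atp5b was highest, at 292 CPM per kb, followed by Cox6a1 at 252 and Cox8a at 243. Lengths are those of 1 annotated principal transcript per gene, which bears on genes such as Ndufb2, the lowest at 1.09 CPM per kb.

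Genes that support oxidative phosphorylation were read from 5 lists. Of 104 tested genes, 38 had a higher and 66 a lower mean in BMAd-DTA, beside 8307 and 8189 of the 16496 genes tested. None passed an adjusted p of 0.05 in edgeR. An unadjusted p under 0.05 was found for 11 of the 104, of which 2 were higher (against 7.89% of all genes) and 9 lower (against 8.53%). In the list of 23 genes of the tricarboxylic acid cycle and pyruvate oxidation, the median log2 fold change was -0.03. Its extremes were Pcx, pyruvate carboxylase, at -0.49 (SE 0.20) and Pdk4, a kinase that inhibits pyruvate dehydrogenase, at 0.40 (SE 0.18), with adjusted p of 0.233 and 0.307 in edgeR. Pcx was counted at 52.2, 54.7, 51.5 and 33.4 CPM in Control and at 23.1 to 49.3 CPM (median 32.8) in BMAd-DTA. It is also abundant in adipocytes, whose markers summed to less than in any Control in 4 of 7 BMAd-DTA libraries, and their part in this value was not tested.

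Among 14 electron and mitochondrial carriers the median was -0.07. Atpif1, the inhibitor of ATP hydrolysis by complex V, had the smallest value at -0.34 (SE 0.11, adjusted p = 0.144 in edgeR), counted at 280, 228, 215 and 203 CPM in Control and at 159 to 235 CPM (median 179) in BMAd-DTA, with 6 of 7 libraries below every Control. Slc25a4, the ADP/ATP carrier of muscle, had the largest at 0.12 (SE 0.10), and Cycs, cytochrome c, was at -0.09 (SE 0.11). Vdac3, an outer membrane channel singled out after its values were seen, had -0.26 (SE 0.07), with an adjusted p of 0.0992 in edgeR and 0.023 in DESeq2. Ucp1, the uncoupling protein of brown fat, was at 0 to 2.27 CPM and was not tested.

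The 35 other assembly factors had a median of -0.02, from Cox11 (-0.24, SE 0.15) to Uqcc2, a complex III factor, at 0.34 (SE 0.11, adjusted p = 0.151 in edgeR). The 20 genes of mitochondrial genome expression had a median of 0.00, from Mterf1a (-0.37, SE 0.24) to Mterf2 (0.33, SE 0.27), and Tfam, which packages mitochondrial DNA and starts its transcription, was at 0.07 (SE 0.09). Of 12 transcriptional regulators, 11 had a lower mean in BMAd-DTA, beside 8189 of the 16496 genes tested, and the median was -0.11. At an unadjusted p under 0.05 in edgeR, 4 of the 12 were lower and 0 higher, against 8.53% and 7.89% of all genes. Besides Ppargc1a these were Hcfc1 (-0.20, SE 0.07), Gabpb2 (-0.19, SE 0.07) and Nfe2l2 (-0.14, SE 0.06), singled out after their values were seen. Their means were 406, 170 and 166 CPM in Control and 354, 149 and 152 CPM in BMAd-DTA. The adjusted p in edgeR was 0.173, 0.174 and 0.238. The smallest value was that of Ppargc1a, the coactivator that drives mitochondrial biogenesis, at -0.77 (SE 0.35), with an adjusted p of 0.297 in edgeR. It was counted at 1.82, 2.47, 4.02 and 1.66 CPM in Control and at 0.75 to 2.47 CPM (median 1.48) in BMAd-DTA, so the groups overlapped at a low level. The largest was that of Ppargc1b, at 0.08 (SE 0.24).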

How the data were processed

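RNA from 11 whole distal tibiae was sequenced as stranded mRNA libraries, 1 per mouse. The authors used FastQC 0.11.9 for read quality and STAR with default settings for alignment to mm10, and deposited raw counts of read pairs per gene, per library and as 1 merged table, without normalization; they analysed these with DESeq2. The annotation release is not given in the sources used here. Identifiers were joined to GENCODE M21 (GRCm38) for symbols, positions and principal transcripts. Members and lists were chosen with earlier results of these data known.

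The test was that of edgeR 4.0.16 in R 4.3.3 (filterByExpr, TMM, glmQLFit and glmQLFTest, two-sided, Benjamini-Hochberg over 16496 genes). CPM values are counts over the TMM-scaled library size. Labels give no replicate numbers, so libraries are numbered within groups in accession order and were not paired. The smallest chi-square per gene between libraries of a group was 18.3, so none was a duplicate; p-values measure the spread between mice. Windows of 100 nt were compared with all other annotated transcripts. Another 13 annotated genes with these prefixes, outside the merged table, had at most 8 counts over all libraries. Alternatives were DESeq2 1.42.0, limma-voom (limma 3.58.1), 3 other scalings, 2 other filters, read-strand and unstranded per-library counts, removal of 28 mitochondrial and globin genes, a muscle or erythroid score as covariate, and each mouse left out.

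Members named are those at either end of the log2 fold changes, with the smallest p and the highest mean CPM of each class, the isoform pairs, complex II and the mitochondrial genes; from each list, the extremes with Ppargc1a, Tfam, Cycs and Ucp1. Other members named (Ndufv1, Ndufv2, Ndufv3, Atp5a1, and those given for a shared sequence or a wide interval) were chosen after their values were seen. The value of 1 member that this rule selects is not reported here.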

Additional observations from a re-analysis of the deposited data

Results flagged for a closer look

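Within a group, a library was marked where its gap to the nearest other was large for the range of the group (Dixon's 95% limit), which chance gives in about 1 of 20 groups; 7 of 124 groups of values were so marked. Control replicate 1 stood high for mt-Nd2 (2301 CPM, against 1725 to 1769 in the other Controls), for the mitochondrial genes of complex I together (12596 CPM, against 10086 to 10448) and for Uqcrh (65.3 CPM, against 56.8 to 58.1). Control replicate 4 stood low for Cox7a2 (45.8 CPM, against 49.6 to 50.4). BMAd-DTA replicate 6 stood high for Sdhc (75.1 CPM, against 58.7 to 61.0). BMAd-DTA replicate 2 stood high for mt-Co3 (4.93 CPM, against 2.59 to 3.40) and mt-Nd6 (4.81 CPM, against 1.13 to 2.45), both genes with few counts. Outside the counts used for the comparison, mt-Nd6 had 239750 unstranded counts over all libraries, beside 383 on its own strand.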

How the results depend on the processing

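No member had an adjusted p under 0.05 in any of the 12 alternatives or with any of the 11 mice left out. The number of members with an unadjusted p under 0.05 was 3, and 2 to 5 in the alternatives (5 in DESeq2); with a mouse left out it was 3 to 5. Ndufs1 was among them in all 23 of these fits, Ndufa4l2 in 22 and Ndufaf4 in 20. Over all genes, calls went from 13 to 845 in DESeq2, 20 in limma-voom and 20 with DESeq2 size factors, 3 with the muscle score and 0 with the erythroid score as covariate, and to 0 to 292 with a mouse left out (0 without Control replicate 1 or 2 or BMAd-DTA replicate 1 or 6, 292 without Control replicate 3, 89 without Control replicate 4); the cause was not tested. All 183 medians by class, 104 ratios of sums and 78 differences in isoform share stayed within 1 SD of their value. For values near 0 this is a wide limit, within which the sign can change. Small values near 0 did change sign under some of these settings: the medians of nuclear complexes I, IV and V, of the assembly factors and of all nuclear subunits, the ratios of sums of complex I and of all nuclear subunits, and the share differences of Cox4, Cox6a and Cox8. With a mouse left out the medians ran from -0.01 to 0.06 for complex I, -0.01 to 0.10 for complex IV and -0.04 to 0.06 for complex V. That of the mitochondrial genome ran from 0.02 to 0.12. No direction of a named member with p under 0.05 turned. Scaling by total counts shifted the median of all genes by -0.01 on the log2 scale. No paired analysis was possible because the labels carry no replicate numbers. Few counts limit the precision for mt-Atp8, mt-Nd3, mt-Nd4l, mt-Nd6, Cox7a1 and Cox8b, and identical nuclear copies the reading of mt-Co2, mt-Co3 and mt-Atp6.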
